A study of Canis lupus familiaris with 6 samples.

Results

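The plasminogen activation system was examined in canine keratinocytes through 9 genes chosen by symbol: PLAU, PLAT, PLAUR, SERPINE2, SERPINB2, SERPINB5, TFPI, TFPI2 and ANXA2. All 9 were found among the 35993 genes of the gene table, and all 9 passed the filter on low counts that left 14708 genes for testing. The cells were wild-type CPEK, a line of canine progenitor epidermal keratinocytes kept in serum-containing medium. Both groups had 3 libraries each. The dCAMP-treated cells were exposed directly to argon-based cold atmospheric microwave plasma (CAMP) for 30 s, and the gas control received the gas without plasma. The medium was changed 15 min later, and RNA was collected 24 h after that. The study's methods describe no scratch in the dishes used for sequencing, and all 6 libraries came from the same cell line, so the comparison covers an unwounded culture of 1 line. The labels number the cultures without saying how they were separated, and p-values measure only the spread between these libraries.

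Plasminogen is a circulating zymogen that urokinase (PLAU) and tissue-type plasminogen activator (PLAT) cleave to plasmin, a broad protease that degrades fibrin and matrix proteins and activates other proteases. Urokinase bound to its receptor PLAUR concentrates this activity at the cell surface, and keratinocytes at a wound margin are known to use it to move through a fibrin clot. Serpins such as SERPINE2 and SERPINB2 trap the activators, Kunitz-type inhibitors such as TFPI and TFPI2 block coagulation proteases and plasmin, and ANXA2 holds plasminogen and PLAT on the cell surface.

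The libraries held 43084921 to 54082634 counts assigned to genes. The gas libraries differed from each other more than the dCAMP libraries did: on principal component 1 of the tested genes' log2 CPM, which held 71.2% of the variance, gas 1 lay at −94.1, gas 2 at −23.0 and gas 3 at 21.7, while the dCAMP libraries lay between 28.6 and 33.6. For the 9 genes, results that rest on gas 1 or gas 3 are therefore given with and without that library. Of 10 keratinocyte markers, 9 were tested and KRT1 was at 0 counts in all 6 libraries. KRT10, another keratin of the list, had 991 to 1804 counts per library. The summed level of the 10 markers was 50835 to 61156 CPM in the gas control and 47272 to 50280 CPM in dCAMP-treated cells. The summed level of 7 fibroblast markers was 5.18 to 5.83 CPM over the 6 libraries, and PDGFRB, DCN and LUM were at 0. The 5 leukocyte markers summed to 1.42 to 2.94 CPM with PTPRC, CD3E and MS4A1 at 0, the 4 melanocyte markers to 0.456 to 0.843 CPM with TYR and DCT at 0, and the 4 endothelial markers to 15.6 to 18.4 CPM in gas and 18.8 to 24.7 CPM in dCAMP with PECAM1 at 0. Of the markers that passed the filter (9 keratinocyte, 3 fibroblast, 3 endothelial, 2 leukocyte and 2 melanocyte), 8 had an unadjusted p under 0.05 by edgeR. Among all genes tested, 6.81% were higher and 13.9% lower in dCAMP by the same cutoff. KRT5, KRT14 and SFN had log2 fold changes of −0.21, −0.30 and −0.43 in dCAMP-treated cells and ITGA6 0.35, and the endothelial markers CDH5 and KDR had 0.69 and 0.45. The fibroblast marker COL1A1 had −0.68, and the melanocyte marker MLANA had 4, 0 and 0 counts in gas and 13, 16 and 11 in dCAMP. All 8 had adjusted p-values of 0.221 to 0.240. Other tested markers of the same lists did not all share these signs. The fibroblast markers COL1A2 and COL3A1 had 0.54 and 0.16, and the melanocyte marker PMEL had −0.62. Among keratinocyte markers, TP63, CDH1, DSP and KRT10 had 0.18, 0.07, 0.09 and 0.06, and ITGB4 had −0.20. The endothelial marker VWF had 0.30. The part of the marker shifts in the results that follow was not tested.

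The 9 genes covered a wide range of RNA levels, and their order was the same in every library. Levels between genes are compared as FPKM, the authors' value per length of transcript. ANXA2 was the most abundant, with 2262 to 2615 FPKM, and ranked 13 among all genes by mean FPKM. SERPINB5 (maspin, a serpin without known protease-inhibiting activity) followed with 116.0 to 176.5 FPKM, and SERPINE2 with 64.9 to 77.0 FPKM. TFPI2 had 35.7 to 53.2 FPKM and SERPINB2 28.2 to 34.8 FPKM. The activators came next, with PLAU at 17.8 to 25.0 FPKM and PLAT at 10.5 to 12.6 FPKM. PLAUR, the receptor, was low at 0.722 to 1.14 FPKM, and TFPI was at 0.0291 to 0.222 FPKM. No neighbours in this order overlapped in range over the 6 libraries, and the smallest step, from SERPINE2 to TFPI2, was 1.47-fold between the means.

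**Figure D1:**
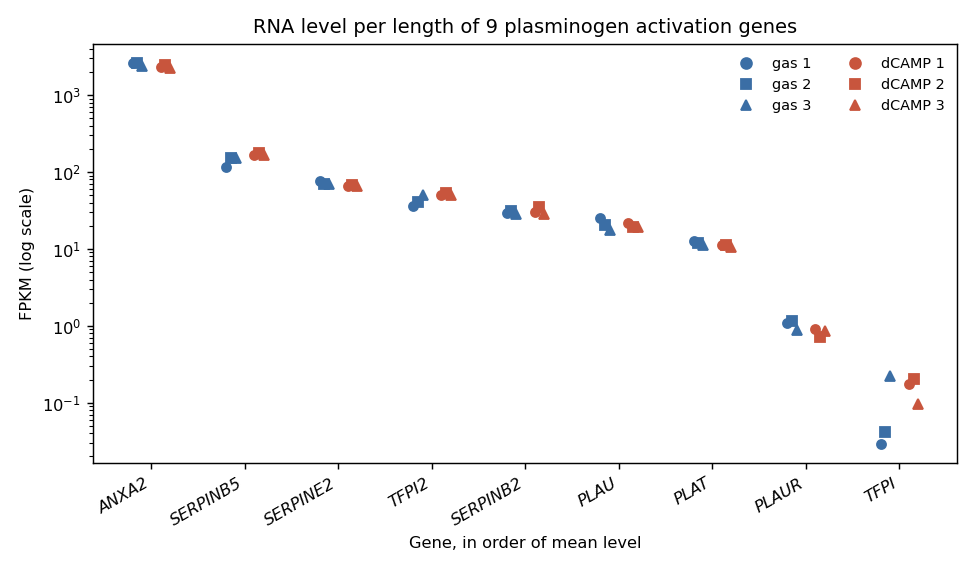
RNA level of each gene in FPKM (log axis) in the 3 gas and 3 dCAMP libraries, one point per library, with genes ordered by mean level. ANXA2 lies at 2262 FPKM or more in every library and TFPI at 0.222 FPKM or less, and the order of the 9 genes is the same in all 6 libraries.

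None of the 9 genes changed by the test in dCAMP-treated cells. By the quasi-likelihood test of edgeR, adjusted after Benjamini and Hochberg over 14708 genes, 0 of 9 had an adjusted p under 0.05, where the percentage among all genes tested was also 0. At an unadjusted p under 0.05, 0 of 9 were higher and 0 of 9 lower, beside 6.81% and 13.9% of all genes tested. The cutoff in the study's methods, which asks for 2-fold and for a raw p below 0.05, was met by 0 of 9, beside 1.09% of the genes tested. The log2 fold change was above 0 for 4 genes (TFPI, TFPI2, SERPINB5 and SERPINB2) and below 0 for 5, with a median of −0.06, beside a median of 0.03 over all genes tested. These were bulk RNA samples, in which fewer cells of a type and less RNA per cell cannot be told apart.

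**Figure D2:**
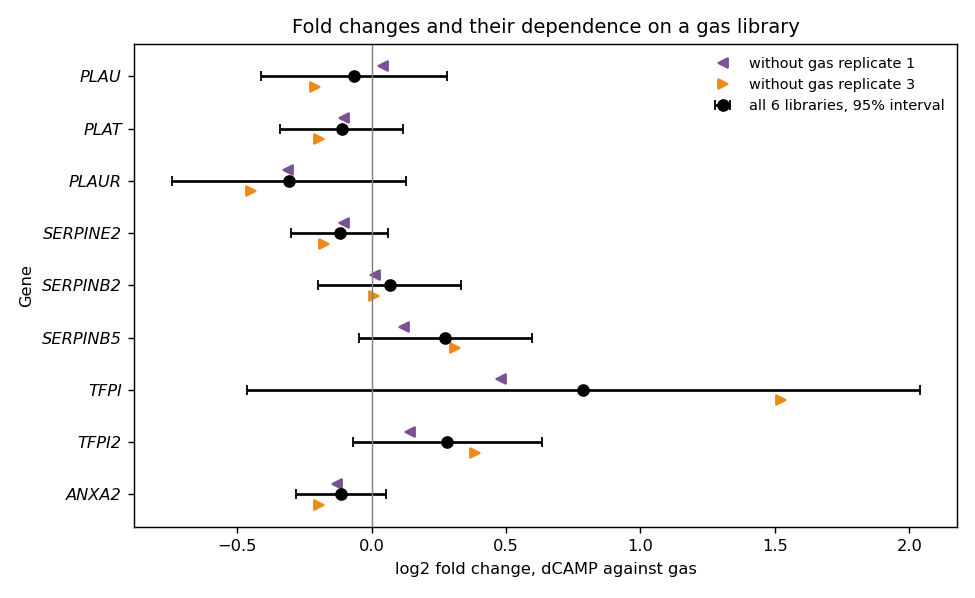
The log2 fold change of dCAMP against gas for the 9 genes, with the 95% interval over all 6 libraries (black) and the estimates without gas 1 (purple) and without gas 3 (orange). All 9 intervals include 0, and the estimate that moves most is that of TFPI, from 0.48 without gas 1 to 1.52 without gas 3.

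PLAU, the gene for urokinase (gene ID 403426; chromosome 4, 24329139 to 24333893 of CanFam3.1), has 1 annotated transcript of 1418 bases. Its expression, as counts scaled to the normalized library size (CPM), was 39.4, 32.8 and 29.0 in gas libraries 1, 2 and 3 and 35.3, 30.5 and 30.9 in dCAMP libraries 1, 2 and 3. The highest and the lowest value were both gas libraries, and the dCAMP values lay between them. For PLAU, the estimated log2 difference was −0.06 (95% interval −0.41 to 0.28, adjusted p = 0.769), so a change of the mean beyond 0.752-fold or 1.21-fold lay outside the interval. It turned to 0.04 without gas 1 and was −0.21 without gas 3.

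PLAT (gene ID 482840; chromosome 16, 23469590 to 23496013) encodes the activator better known from fibrin clots in blood. It had 37.2, 36.6 and 34.0 CPM in the gas control and 34.0, 34.2 and 31.7 CPM in dCAMP-treated cells. Gas 3 lay within the dCAMP values and the other gas libraries above them. This amounted to a log2 fold change of −0.11 (95% interval −0.34 to 0.12, adjusted p = 0.443), and between −0.20 and −0.10 when any 1 library was left out. The locus of PLAT overlaps LOC100685534, which had 22 to 32 counts per library against 1433 to 1929 for PLAT.

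PLAUR (gene ID 476446; chromosome 1, 111476804 to 111490876), the urokinase receptor, rested on few reads: the gas control gave 85, 105 and 82 counts and dCAMP-treated cells gave 74, 53 and 67. This was 1.84, 1.99 and 1.55 CPM in gas and 1.60, 1.24 and 1.48 CPM in dCAMP. The groups overlapped only through gas 3 and dCAMP 1. PLAUR thus had a log2 fold change of −0.31 (95% interval −0.74 to 0.13, adjusted p = 0.312), and it stayed below 0 in the 6 fits that left out 1 library, from −0.45 to −0.24. A mean of 0.598-fold lies within the interval, and so does no change.

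Within each library, PLAU had 1.60 to 1.98 times the FPKM of PLAT and 17.7 to 26.3 times that of PLAUR. The PLAU to PLAUR ratio was 20.2 ± 2.62 (SD, n = 3) in gas and 24.1 ± 2.04 (SD, n = 3) in dCAMP-treated cells, with overlapping values.

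SERPINE2 (gene ID 608930; chromosome 37, 29699551 to 29750151), a cell-bound inhibitor of thrombin and of both plasminogen activators, stood at 169.4, 156.5 and 159.0 CPM under gas and at 148.3, 152.3 and 146.0 CPM after dCAMP. All 3 dCAMP values lay below all 3 gas values. It was the 1 gene of 9 with this pattern, which 20.9% of all genes tested showed. Its log2 fold change was −0.12 (95% interval −0.30 to 0.06, adjusted p = 0.334), a mean of 0.921-fold, and −0.18 to −0.10 without any 1 library. SERPINE2 stood at 3.01 to 3.92 times the FPKM of PLAU and 5.71 to 6.26 times that of PLAT.

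SERPINB2 (gene ID 609604; chromosome 1, 13260288 to 13276727), plasminogen activator inhibitor 2, is a mostly intracellular serpin of stratified epithelium and macrophages. Its expression was 61.8, 69.1 and 63.7 CPM in gas and 66.5, 75.8 and 61.6 CPM in dCAMP. The dCAMP libraries held both the highest and the lowest value. On the log2 scale the difference was 0.07 (95% interval −0.20 to 0.33, adjusted p = 0.687), and −0.05 without dCAMP 2. Of its annotated transcripts, the 1918-base variant X2 took 79.6 to 89.2% of the counts in gas and 81.8 to 88.2% in dCAMP, and the 1939-base variant X1 took the rest. These shares are estimates by the authors' assembler, and the groups overlapped. A further locus, LOC111093874, overlaps SERPINB2 and had 0 counts in every library.

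SERPINB5 (gene ID 476177; chromosome 1, 13566982 to 13638839) is a serpin of epithelial cells. Gas libraries 1, 2 and 3 stood at 353.8, 476.2 and 487.4 CPM, and dCAMP libraries 1, 2 and 3 at 530.8, 548.7 and 513.5 CPM. All 3 dCAMP values lay above all 3 gas values, which was the case for 1 of the 9 genes and for 19.0% of all genes tested. The mean was 439.2 ± 74.1 CPM (SD, n = 3) in gas and 531.0 ± 17.6 CPM (SD, n = 3) in dCAMP. SERPINB5 had a log2 fold change of 0.27 (SE 0.13, 95% interval −0.05 to 0.60, adjusted p = 0.268). The difference depended on gas 1: leaving it out gave 0.12, and leaving out gas 3 gave 0.31. The spread of the counts also differed: their chi-square statistic per degree of freedom, which is near 1 for sampling alone, was 599.2 in gas and 25.7 in dCAMP. Variant X3, of 2742 bases, took 97.6 to 98.4% of the SERPINB5 counts in all 6 libraries.

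The estimates of SERPINB5 and SERPINE2 had opposite signs, though neither passed the test. The FPKM of SERPINB5 was 1.51, 2.19 and 2.21 times that of SERPINE2 under gas and 2.58, 2.60 and 2.53 times after dCAMP. This ratio was formed after the values were seen and is given as a description.

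TFPI2 (gene ID 475230; chromosome 14, 19399259 to 19403890) is a secreted Kunitz inhibitor found in the extracellular matrix that acts on plasmin and other trypsin-like proteases. It had 57.7, 68.6 and 83.9 CPM in gas and 84.7, 87.6 and 83.4 CPM in dCAMP. Gas 1 and gas 2 lay below the dCAMP values and gas 3 among them. TFPI2 had a log2 fold change of 0.28 (SE 0.15, 95% interval −0.07 to 0.63, adjusted p = 0.282). It was 0.14 without gas 1 and 0.39 without gas 3, where edgeR gave an adjusted p of 0.0362, the lowest of the 6 fits that left out a library, the highest being 0.502. The spread was 13.2 CPM (SD, n = 3) in gas and 2.15 CPM (SD, n = 3) in dCAMP. The GNGT1 locus overlaps TFPI2 and had 0 counts in every library.

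TFPI (gene ID 403921; chromosome 36, 29457131 to 29546455), the inhibitor of tissue factor with factor VIIa and of factor Xa, was close to the limit of detection. Gas libraries 1, 2 and 3 held 7, 10 and 33 counts, and dCAMP libraries 1, 2 and 3 held 28, 31 and 20. On the CPM scale this was 0.151, 0.190 and 0.622 in gas and 0.604, 0.723 and 0.443 in dCAMP, where a count of 0 would allow up to 0.0566 to 0.0700 CPM per library. The low values were those of gas 1 and gas 2, while gas 3 lay within the dCAMP range. The chi-square per degree of freedom was 10.7 in gas and 1.49 in dCAMP. For TFPI the log2 fold change was 0.79 (SE 0.52, 95% interval −0.46 to 2.04, adjusted p = 0.345). It was 0.48 without gas 1 and 1.52 without gas 3, where edgeR gave an adjusted p of 0.0296, against up to 0.579 when another library was left out. Most counts were placed on the 4012-base variant X2, which took all TFPI counts in gas 1, gas 2 and dCAMP 3. The 3865-base variant X1 had 10 counts in dCAMP 2 and 0 in every other library. The 1232-base variant X4 had 11 counts in gas 3 and 5 and 4 in dCAMP 1 and dCAMP 2. Both had too few counts to compare. TFPI2 had 226 to 1227 times the FPKM of TFPI.

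ANXA2 (gene ID 403435; chromosome 30, 25176845 to 25210244) reached 2954, 3048 and 2787 CPM under gas and 2676, 2823 and 2622 CPM after dCAMP. The groups overlapped through gas 3 and dCAMP 2. ANXA2 had a log2 fold change of −0.11 (95% interval −0.28 to 0.05, adjusted p = 0.321), a mean of 0.924-fold. Without gas 3 it was −0.20 with an adjusted p of 0.0485 from edgeR, against up to 0.526 when another library was left out. An annexin A2-like locus, LOC100687983, had 48 to 77 counts per library against 118458 to 160458 for ANXA2, and how reads shared by near copies were counted is not given in the sources used here. S100A10, the small calcium-binding protein that pairs with ANXA2 on the membrane, was named after its values were seen. It had 25042 to 28678 counts in gas and 24650 to 25468 in dCAMP. The CPM of all 3 dCAMP libraries lay above those of gas, as in 19.0% of all genes tested. The log2 fold change of S100A10 was 0.06 (adjusted p = 0.525 from edgeR), a mean of 1.04-fold, and it was 0.0041 without gas 3. ANXA2 had 3.74 to 3.99 times the FPKM of S100A10 in gas and 3.33 to 3.50 times in dCAMP-treated cells. With S100A10 named after its values were seen, this ratio is a description only. Neither gene passed the test on all 6 libraries.

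**Figure D3:**
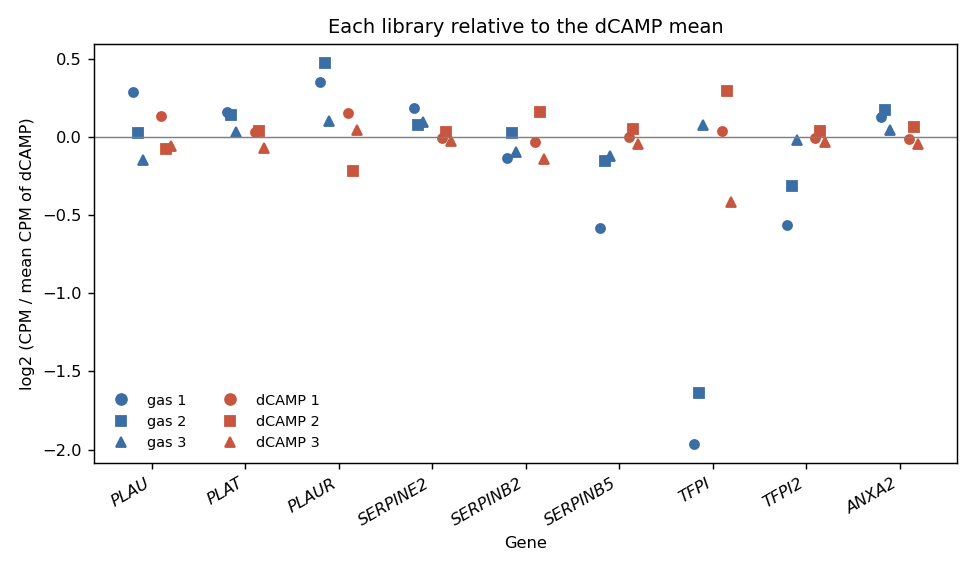
Log2 ratio of each library's CPM to the mean CPM of the 3 dCAMP libraries, for the 9 genes. Gas 1 lies at −0.59 for SERPINB5, −0.56 for TFPI2 and −1.96 for TFPI, while gas 3 lies between −0.15 (PLAU) and 0.10 (PLAUR).

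Of the gas libraries, gas 3 had the narrowest range around the dCAMP mean in these 9 genes. Its log2 ratio to the dCAMP mean ranged from −0.15 for PLAU to 0.10 for PLAUR. Gas 1 ranged from −1.96 for TFPI to 0.35 for PLAUR, and gas 2 from −1.64 for TFPI to 0.47 for PLAUR. The low ends rest on TFPI, with 7 counts in gas 1 and 10 in gas 2. Gas 2 lay nearer the dCAMP mean than gas 3 for PLAU (0.02), SERPINE2 (0.07 against 0.10) and SERPINB2 (0.02 against −0.09). The SD of log2 CPM was larger in gas than in dCAMP for 7 of the 9 genes, beside 81.6% of all genes tested. The exceptions were SERPINB2 (0.08 in gas and 0.15 in dCAMP) and PLAUR (0.18 in both).

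The calls depended on gas 3 and on how libraries were weighted. In the fit without gas 3, 3 of 9 genes had an adjusted p under 0.05. TFPI and TFPI2 were higher and ANXA2 lower in dCAMP-treated cells, beside 15.0% of all genes called higher and 18.1% called lower in that fit. In the other 5 fits without 1 library, 0 of 9 passed. limma's voom with sample quality weights called 6 of 9: SERPINB5, TFPI and TFPI2 were higher, beside 32.6% of all genes, and PLAT, PLAUR and ANXA2 were lower, beside 28.2% of all genes. DESeq2, the tool of the study's methods, called 0 of the 9 with either filter. With all genes that had a count it called 2.59% of the genes for which it gave an adjusted p, and gave none for PLAUR and TFPI. With at least 1 count in every library it gave none for TFPI. PLAU, SERPINE2 and SERPINB2 had an adjusted p above 0.05 in every fit that was run, the one on all 6 libraries included.

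The rest of the network was described by a list of 44 other genes, of which 42 were found, 39 by symbol and 3 by gene ID. Of these, 29 passed the filter on low counts, and 8 had 0 counts in every library. PLG, which encodes plasminogen and is made mainly by the liver, was among those 8, as were VTN, CPB2 and F7, the genes of vitronectin, a carboxypeptidase that slows fibrinolysis, and coagulation factor VII. Of the 29 tested, 0 had an adjusted p under 0.05. By an unadjusted p under 0.05, 2 were higher and 3 lower, against the background of 6.81% and 13.9% given above, and 0 of the 29 reached a 2-fold change. The 3 dCAMP values lay above the 3 gas values in 3 of the 29 and below them in 5, beside the 19.0% and 20.9% of all genes tested given above. The median log2 fold change was −0.02. Without gas 3, 11 of 30 had an adjusted p under 0.05, 3 higher and 8 lower, against 15.0% and 18.1% of all genes.

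**Figure D4:**
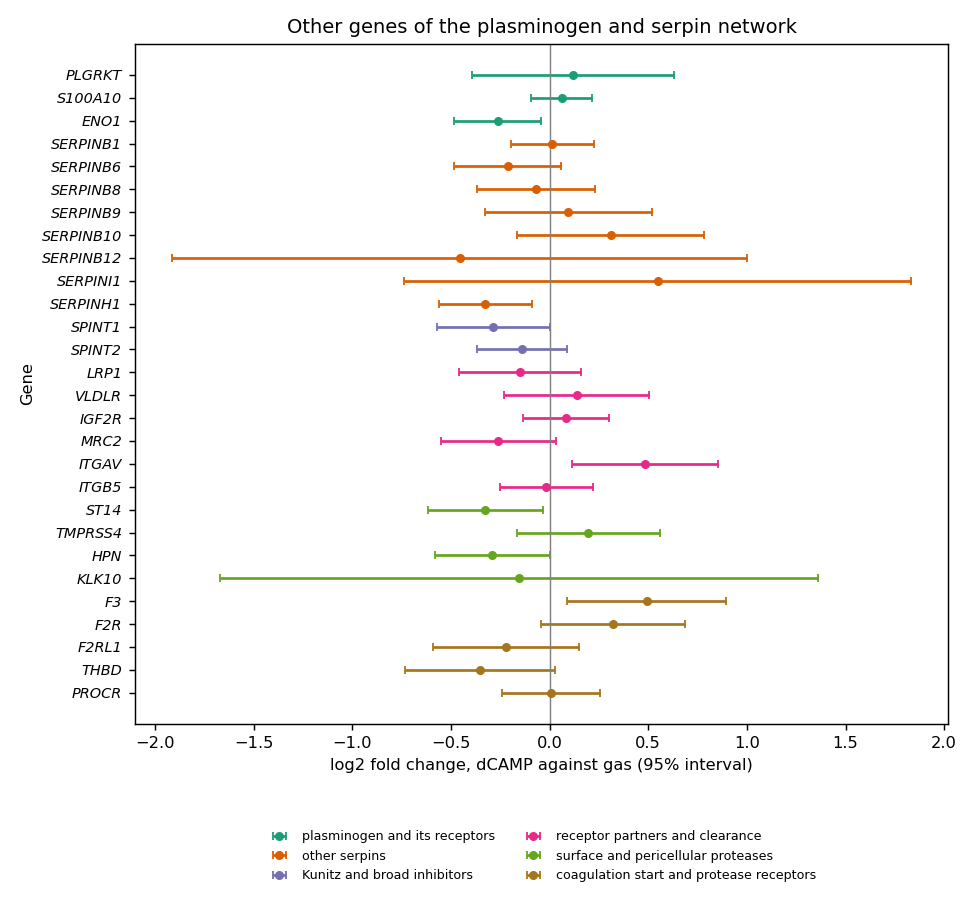
The log2 fold change of dCAMP against gas with its 95% interval for 28 of the 29 tested genes of the wider list, coloured by subgroup. The intervals of the 5 genes with an unadjusted p under 0.05 leave out 0, and those of the other genes include it.

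ITGAV, the integrin alpha V chain that binds vitronectin beside the urokinase receptor, and F3, which encodes tissue factor, the target of TFPI, were the 2 genes higher by an unadjusted p. ITGAV had 3544, 4136 and 5811 counts in gas and 5597, 5406 and 5580 in dCAMP. This was 0.48 on the log2 scale (SE 0.15, adjusted p = 0.221 from edgeR), 0.38 without gas 1 and 0.62 without gas 3. F3 had 1370, 2076 and 2425 counts in gas and 2455, 2372 and 2402 in dCAMP. This was 0.49 on the log2 scale (SE 0.17, adjusted p = 0.223 from edgeR), 0.32 without gas 1 and 0.60 without gas 3. For both genes, gas 1 had the lowest CPM. Both were among the 3 genes of the list whose dCAMP values all lay above the gas values.

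The 3 genes lower by an unadjusted p were ENO1, SERPINH1 and ST14. ENO1, a glycolytic enzyme that also binds plasminogen on cell surfaces, stood at −0.26 on the log2 scale (SE 0.09, adjusted p = 0.224). SERPINH1, a collagen chaperone of the serpin fold without inhibitory activity, was at −0.33 (SE 0.10, adjusted p = 0.221). ST14 (matriptase), a membrane serine protease of epithelia, was at −0.33 (SE 0.12, adjusted p = 0.229). They were among the 5 genes of the list whose dCAMP values all lay below the gas values, with SPINT1 and HPN, which are named for this count only. The 5 genes with an unadjusted p under 0.05 (ITGAV, F3, ENO1, SERPINH1 and ST14) had edgeR adjusted p-values of 0.0203 to 0.0291 without gas 3. In the other fits without 1 library these were up to 0.502. The log2 fold changes of ENO1, SERPINH1 and ST14 were −0.38, −0.45 and −0.47 without gas 3 and −0.21, −0.26 and −0.24 without gas 1.

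Among the most abundant genes of the remaining subgroups, SPINT2, a membrane Kunitz inhibitor of matriptase-type proteases, had a mean of 205.0 FPKM and a log2 fold change of −0.14 (adjusted p = 0.357), which was −0.25 without gas 3 and −0.11 without gas 1. ITGB5, an integrin chain that pairs with ITGAV, had a mean of 80.8 FPKM and −0.02 (adjusted p = 0.914), which was −0.14 without gas 3 and turned to 0.016 without gas 1. PROCR, the endothelial protein C receptor, had 27.0 FPKM and 0.01 (adjusted p = 0.965), which turned to −0.10 without gas 3 and was 0.05 without gas 1.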

How the data were processed

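RNA-Seq libraries from 3 gas-treated and 3 dCAMP-treated CPEK cultures were analysed. According to the methods and the submitters' processing notes, the authors checked reads with FastQC 0.11.7, trimmed them with Trimmomatic 0.38, aligned them to CanFam3.1 with HISAT2 2.1.0 and summarized known transcripts with StringTie 2.1.3b. The annotation release and the counting of overlapping genes are not given in the sources used here. The deposited counts are whole numbers per gene and transcript without normalization, and the deposited FPKM values were scaled by the authors for length and mapped reads. Each table also had 6 deposited TPM columns, which the authors scaled to a fixed total and which entered no step. The deposited transcript table also gave transcript lengths.

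Counts were analysed in R 4.3.3 with edgeR 4.0.16 (TMM, filterByExpr, quasi-likelihood test, prior count of 2), limma 3.58.1 and DESeq2 1.42.0, over all genes, two-sided. Standard errors and 95% intervals were derived from the F statistic. The steps were tested on simulated data with 200 genes changed 3-fold and the same dispersion in both groups. This does not cover smaller changes or the unequal spread of the gas and dCAMP libraries. Gene ID matches used RefSeq (UU_Cfam_GSD_1.0) for names, and coordinates were taken from the transcript table. Genes named were the 9 members and, of the wider list, those with an unadjusted p under 0.05 and the most abundant of each of its 6 subgroups. Other genes named (S100A10, genes at 0 counts, genes that overlap a member or resemble it by name, SPINT1, HPN and the clade B serpins of chromosome 1) were chosen after their values were seen. The members and lists were chosen with earlier results of these data known. Alternatives were DESeq2 (2 filters), RLE factors, upper-quartile factors, dropping the filter, a minimum of 10 counts per library, the replicate block, voom with sample quality weights, log2 of FPKM plus 1, and leaving out each library. A further gene of the wider list counts in its totals but is not reported here. Intervals and count limits cover the stated error only.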

Additional observations from a re-analysis of the deposited data

How the results depend on the processing

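The number of genes called among the 9 was 0 by each of the 3 call rules, and 0 under both DESeq2 settings, RLE factors, upper-quartile factors, dropping the filter, a minimum of 10 counts per library (which left out TFPI) and the log2 of FPKM plus 1. With voom and sample quality weights it was 1 when 2-fold was asked beside the unadjusted p, 6 by an unadjusted p and 6 by an adjusted p. Over the fits without 1 library it was 0 to 1, 0 to 3 and 0 to 3, and every value above 0 came without gas 3. Of the wider list, 5 genes had an unadjusted p under 0.05 and 0 an adjusted p under 0.05; voom with sample quality weights gave 15 and 15, and the fits without 1 library 1 to 13 and 0 to 11. Over all genes, voom with sample quality weights gave 9541 and 8944 of 14708, and the fit without gas 3, which gave the highest counts, 7374 and 4953 of 14975. The log2 fold change of PLAU ranged from −0.209 to 0.0415 over the fits without 1 library and was above 0 without gas 1. That of SERPINB2 was −0.0200 with upper-quartile factors and −0.0470 with voom, and ranged from −0.0478 without dCAMP 2 to 0.100 without dCAMP 3. The log2 fold change of TFPI was 0.08 on the log2 of FPKM plus 1. There the added 1 exceeds the 0.0291 to 0.222 FPKM of TFPI, which shrinks its ratios. The cause of the other shifts was not tested. Same-numbered libraries deviated from their group means with correlations of 0.130, 0.0237 and 0.0479. Gas 1 and gas 2 correlated best with the dCAMP library of the same number, and gas 3 with dCAMP 2 (0.0873). The study's methods name no pairing, and the main fit did not take the numbers as pairs. With the replicate block in edgeR, 0 of the 9 genes were called by any of the 3 rules. In that fit, 4 of the 29 genes of the wider list had an unadjusted p under 0.05, beside 2775 of all 14708 genes. By an adjusted p under 0.05, 0 of the 29 and 0 of the 14708 were called. PLAUR and TFPI rested on few reads, with 53 to 105 and 7 to 33 counts per library. For TFPI the spread between the gas libraries was above counting noise, and what set it was not tested.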

Other observations

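SERPINB2 and SERPINB5 lie in a group of 9 clade B serpin loci on chromosome 1 between 13213506 and 13638839 of CanFam3.1. Of these, 6 passed the filter on low counts. Levels of neighbours differed widely: SERPINB5 had a mean of 155.2 FPKM, SERPINB10 45.0, SERPINB2 30.4 and the SERPINB8 locus 25.6, while SERPINB7 had 0.226 FPKM, SERPINB12 0.213, SERPINB13 0.0170 and SERPINB11 0.00497, and LOC483954 was at 0 counts in every library. SERPINB10 had 3056, 4927 and 6037 counts in gas and 5021, 5080 and 5065 in dCAMP, a log2 fold change of 0.31 (adjusted p = 0.333 from edgeR).

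SERPINB7, a clade B serpin of the epidermis, was named after its values were seen. Gas libraries 1, 2 and 3 held 10, 18 and 13 counts and dCAMP libraries 37, 36 and 39. All 3 dCAMP values lay above all 3 gas values, as in 19.0% of all genes tested. The log2 fold change was 1.496 (standard error 0.24, adjusted p = 0.221 from edgeR), between 1.37 and 1.66 in the fits without 1 library. The adjusted p from edgeR was 0.0249 without gas 3, a fit that called 15.0% of all genes higher. In the other fits without 1 library it was 0.196 to 0.502. Its gas 3 value lay outside the dCAMP range. Its locus overlaps LOC111093968, and the effect of shared reads was not tested.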
